A study of Mus musculus with 16 samples.

Results

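The genes of MHC class I antigen presentation were followed through 16 RNA-seq libraries from mouse embryos with and without Nprl3, a component of the GATOR1 complex that restrains mTORC1. The members were chosen by symbol for their place in the pathway, with earlier results of these data known. They were the classical heavy chains H2-K1 and H2-D1, the light chain B2m, the peptide transporter subunits Tap1 and Tap2, the loading chaperone Tapbp (tapasin), the inducible proteasome subunits Psmb8, Psmb9 and Psmb10, and the transactivator Nlrc5. All 10 were found among the 55416 genes of the count table. The livers of 8 embryos at E13.5 were sorted into S1 cells (CFU-E progenitors) and S3 cells (basophilic erythroblasts), and each embryo gave 1 library of each. Their litters are not given in the sources used here. The embryos were 4 wild type (WT, numbered 0, 1, 5 and 8), 2 heterozygous (Het, 3 and 4) and 2 Nprl3-/- (KO, 2 and 9), and no group received a treatment. The KO allele is a constitutive deletion of the Nprl3 promoter on a background backcrossed to C57BL/6J, with the α-globin enhancers in the introns left in place. It is therefore carried by every cell of the foetal liver and not by erythroid cells alone, and it is lethal before birth. With 2 embryos in Het and in KO, the spread within these groups is known poorly.

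Class I molecules carry peptides made inside the cell to its surface, where cytotoxic T cells and natural killer cells read them. Proteins are cut by the proteasome, in which Psmb8, Psmb9 and Psmb10 can take the places of the constitutive catalytic subunits Psmb5, Psmb6 and Psmb7. The peptides are carried into the endoplasmic reticulum by the Tap1 and Tap2 dimer and loaded on the heavy chain and B2m with the help of tapasin. Interferons raise nearly all of these genes, in part through Irf9, and Nlrc5 drives them in lymphoid cells. Red cells of the mouse, unlike human ones, carry class I protein on their surface.

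On mm39, the build of the count table, 7 of the 10 members lay on chromosome 17, in and beside the MHC. H2-K1 spanned chr17:34214991-34219321 on the minus strand and H2-D1 chr17:35481706-35486475 on the plus strand, with 1266715 bases between their lower coordinates. Between them lay Psmb9 (chr17:34400961-34406738, minus strand), Tap1 (chr17:34406527-34416199, plus strand), Psmb8 (chr17:34416695-34420428, plus strand) and Tap2 (chr17:34422501-34435295, plus strand). Tapbp lay outside H2-K1 at chr17:34134873-34148266 on the plus strand. B2m was on chromosome 2 (chr2:121978167-121983564, plus strand). Psmb10 (chr8:106662367-106665076, minus strand) and Nlrc5 (chr8:95160984-95253900, plus strand) were on chromosome 8. The counts did not use the strand and left out reads that fell in more than one gene. Tap1 and Psmb9 overlap by 212 bases on opposite strands, Tapbp overlaps Zbtb22 by 3422 bases on the same strand, and B2m lies within Patl2 on the opposite strand. Noncoding genes on the opposite strand also overlap Psmb10 (Gm16156, 2710 bases, the whole gene), Psmb8 (Gm20496, 2139 bases), Tap2 (Gm20496 and Gm15821, 1923 and 3148 bases), Tapbp (Gm19412, 1207 bases) and Nlrc5 (9330175E14Rik, 748 bases), and had 0 to 30 counts each over all libraries. H2-D1 shared 6.85% of the 75-base windows of its transcript with other genes and H2-K1 1.55%, most often with class I heavy chains, so their counts also leave out reads that fit a relative. Tapbp shared 1.03%, with the overlapping Zbtb22 and with D330050I16Rik.

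The promoter windows of H2-K1, H2-D1, B2m and Tap1 are shown because the first 3 had the largest log2 fold changes of KO against WT among the members tested at S3, and Tap1 at S1. They run from 250 bases before the RefSeq transcription start to 50 bases from it on, on GRCm38.p6, and are written 5′ to 3′ on the gene's strand. RefSeq windows were matched for 8 of the 10 members, and Tap2 and Nlrc5 are named only. Capitals mark the letters searched on both strands, namely GAAANNGAAA and the shorter GAANNGAAA (cores of the interferon-stimulated response element, ISRE, to which Irf9 binds), TTCNNNGAA (core of the gamma-activated site, GAS, named for interferon gamma), GGGATTCCC (a kappa B site) and TGACG (part of the cyclic AMP response element). No match of one motif overlapped a match of another in these windows.
H2-K1 (chr17:34000298-34000597, minus strand): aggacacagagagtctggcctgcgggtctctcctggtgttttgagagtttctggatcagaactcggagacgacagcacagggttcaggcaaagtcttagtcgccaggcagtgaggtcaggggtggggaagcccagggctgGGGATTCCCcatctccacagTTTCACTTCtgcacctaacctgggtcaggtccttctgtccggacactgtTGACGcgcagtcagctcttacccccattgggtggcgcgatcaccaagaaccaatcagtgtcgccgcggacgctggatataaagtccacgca
H2-D1 (chr17:35262844-35263143, plus strand): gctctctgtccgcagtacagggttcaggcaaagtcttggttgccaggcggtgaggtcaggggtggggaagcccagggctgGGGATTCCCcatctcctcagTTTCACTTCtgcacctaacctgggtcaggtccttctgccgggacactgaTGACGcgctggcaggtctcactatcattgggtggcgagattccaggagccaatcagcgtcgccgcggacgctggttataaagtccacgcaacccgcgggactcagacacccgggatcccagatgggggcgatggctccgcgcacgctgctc
B2m (chr2:122147437-122147736, plus strand): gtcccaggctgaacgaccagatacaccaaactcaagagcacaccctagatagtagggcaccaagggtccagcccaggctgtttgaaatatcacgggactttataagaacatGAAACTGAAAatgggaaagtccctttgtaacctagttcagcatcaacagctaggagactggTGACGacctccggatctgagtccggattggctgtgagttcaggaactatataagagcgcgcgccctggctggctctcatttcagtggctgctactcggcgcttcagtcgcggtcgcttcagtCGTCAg
Tap1 (chr17:34187306-34187605, plus strand): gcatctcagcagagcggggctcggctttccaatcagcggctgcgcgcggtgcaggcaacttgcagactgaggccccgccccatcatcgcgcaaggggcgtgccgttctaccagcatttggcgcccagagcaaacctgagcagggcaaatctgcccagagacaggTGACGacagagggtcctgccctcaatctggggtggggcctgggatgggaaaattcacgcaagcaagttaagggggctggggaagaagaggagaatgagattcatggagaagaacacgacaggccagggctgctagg

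The windows of the classical heavy chains held the same 3 motifs in the same order and spacing. In H2-K1 the kappa B letters began 110 bases before the start, the short ISRE core (as GAAGTGAAA on the other strand) 90 bases and TGACG 41 bases. In H2-D1 they began 170, 150 and 101 bases before it. Laid on each other at the kappa B letters without gaps, the windows were identical at 176 of 240 bases (73.3%), and at 28 of 29 bases (96.6%) from the kappa B to the end of the ISRE letters. B2m held the longer ISRE core (GAAACTGAAA) 139 bases before its start and TGACG 78 bases before it. Psmb8 held a GAS core 97 bases before its start, in letters that match on both strands. The windows of Tap1 and Psmb9 run from starts 226 bases apart on opposite strands, share 275 bases and hold the same TGACG. Psmb10 and Tapbp held none of the motifs, which says only that these letters are not in these windows. Among the 27025 promoter windows of the table, GGGATTCCC was found in 0.37%, GAAANNGAAA in 3.49%, GAANNGAAA in 7.56%, TTCNNNGAA in 8.47% and TGACG in 21%. A match is a description of the sequence and not a site of binding in these cells.

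Total counts ran from 23331156 to 36035368 per library at S1 and from 20666044 to 37609502 at S3. Levels are given as TMM-scaled CPM (reads of a gene relative to the library's scaled total) for comparison between libraries, and as TPM (relative transcript abundance, corrected for length) for comparison between genes. The length is that of all exons of a gene together. It differs unequally from that of the canonical transcript, with 3660 against 1353 bases for Psmb9 and 2579 against 2117 for H2-D1. Ranks between genes and shares in counts per kilobase depend on it. Nprl3 itself ran from 22.6 to 32.6 CPM in WT and from 0.319 to 0.676 CPM in KO at S1. At S3 it ran from 146 to 203.5 CPM in WT and was 107 and 111 CPM in the KO embryos, so the check of the labels was in the labelled direction in both stages and weak at S3. The paper reports that spliced transcripts starting at the enhancers, which do not code for protein, confound the measurement of Nprl3 mRNA. Its promoter-specific assay detected no Nprl3 mRNA in Nprl3-/- cells. The part of such transcripts in the counts given here was not tested. The labels' source field names an embryonic stem cell line, but 6 embryonic stem cell markers summed to at most 0.102 CPM in any library, whereas 12 erythroid markers summed to 1999 CPM or more at S1 and 155600 CPM or more at S3. The 12 defining markers of B and T cells, natural killer cells and dendritic cells summed to at most 0.507 CPM at S3. At S1 they summed to 12.99 and 4.849 CPM in WT embryos 0 and 8, 38.75 and 55.4 CPM in the other WT embryos, 44.1 and 45.7 CPM in Het, and 50.2 and 53.6 CPM in KO.

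The S1 libraries of WT embryos 0 and 8 stood apart from the other 6. Globin genes took 1.07% and 1.00% of their counts, against 0.0738% to 0.306% in the rest. The 11 neutrophil markers summed to 204 and 116 CPM in them, against 1153 to 1701 CPM in the others, and Mpo (myeloperoxidase) was 137 and 94.55 CPM against 766 CPM or more. Embryos 0 and 8 are the male WT embryos and 1 and 5 the female ones, so sex and this split cannot be told apart in WT. KO embryo 2 is female, and KO embryo 9 and both Het embryos are male. Fitted S1 differences of the members are therefore given with and without WT embryos 0 and 8.

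In WT cells, B2m was the most abundant member at both stages, with 524 ± 176.5 TPM at S1 and 127.5 ± 27.96 TPM at S3 (mean ± SD, n = 4). At S1 it was followed by Psmb10 (218 ± 77.8 TPM) and H2-D1 (218 ± 10.2 TPM), which could not be ranked, since the Psmb10 libraries ran from 117.5 to 303 TPM and those of H2-D1 from 203.6 to 226 TPM. H2-K1 had 74.6 ± 15.4 TPM and Tapbp 45.04 ± 12.6 TPM, and their ranges overlapped. Tap2 (12.6 ± 3.66 TPM), Psmb8 (8.39 ± 6.31 TPM), Psmb9 (3.53 ± 2.53 TPM) and Tap1 (2.53 ± 0.486 TPM) were low, and each overlapped the next in this order. Nlrc5 was at or near 0, with 11 of 16 libraries at 0 counts and at most 10 counts in any library. A count of 0 allows up to 3 counts, or 0.0616 to 0.207 CPM depending on the library, so a lower level of Nlrc5 was not detectable at this depth.

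**Figure D1:**
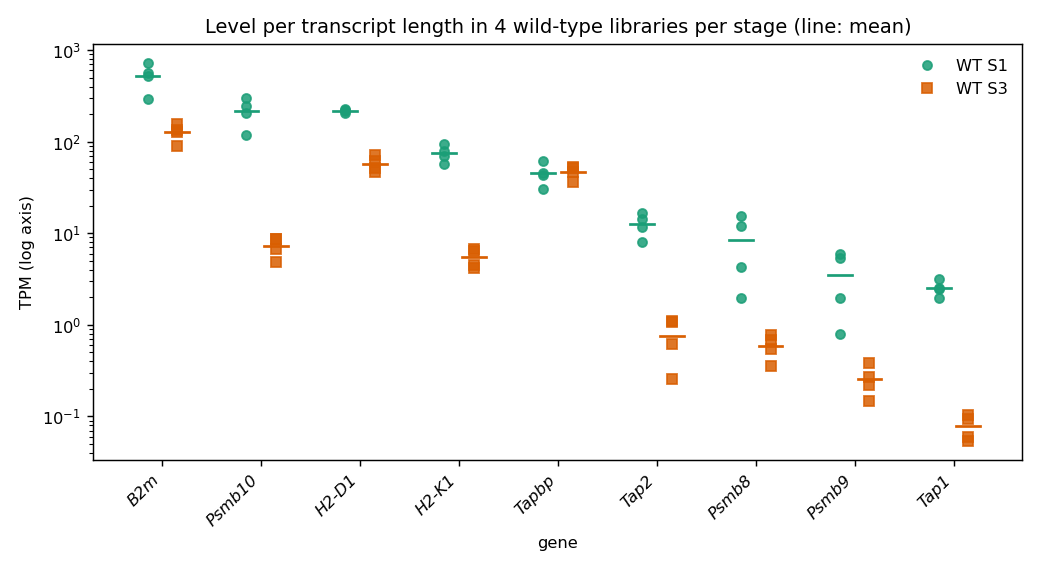
Level of 9 members in TPM (log axis) in the 4 WT libraries of S1 (circles) and of S3 (squares), with lines at the means. Psmb10 ranks beside H2-D1 at S1 and far below it at S3, while Tapbp averages 45.04 and 46.8 TPM. Nlrc5, at 0 in 11 of 16 libraries, is left out.

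From S1 to S3 in WT embryos, most members fell and Tapbp rose in TMM-scaled counts, but Tapbp did not rise in TPM. Of the 9 members that passed the filter (a mean of over 10 normalized counts), 7 were lower and 1 was higher at an adjusted p under 0.05 (edgeR quasi-likelihood test, Benjamini-Hochberg), where 35% and 30.6% of all 13514 genes tested were called lower and higher. Psmb10 fell from 40.7 to 136 CPM at S1 to 5.31 to 9.77 CPM at S3 (log2 fold change -3.53 ± 0.36 (SE), edgeR adjusted p = 1.35e-05). Tap1 fell by 3.57 ± 0.37 on the log2 scale (adjusted p = 1.51e-05), to between 3 and 9 counts per S3 library. Its partner Tap2 fell by 2.60 ± 0.376 (edgeR adjusted p = 0.000151). In these 3 genes no S3 library reached the level of any S1 library, as in 32.8% of all genes tested.

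The classical heavy chains fell unequally. H2-K1 ran from 33.7 to 72.6 CPM at S1 and from 7.72 to 13.3 CPM at S3, a log2 fold change of -2.37 ± 0.256 (edgeR adjusted p = 2.01e-05). H2-D1 ran from 114 to 154.5 CPM at S1 and from 77.5 to 121 CPM at S3, and its ranges overlapped (log2 fold change -0.50 ± 0.162, edgeR adjusted p = 0.0196). That call was lost without WT embryo 0 (adjusted p = 0.12), without WT embryo 1 (0.0678) and without both embryos 0 and 8 (adjusted p = 0.0911). In TPM, H2-D1 was at 218 against 74.6 for H2-K1 at S1, and at 57.6 against 5.46 at S3, and its stages did not overlap (203.6 to 226 TPM at S1 and 47.2 to 70.7 TPM at S3). B2m ran from 51.7 to 165 CPM at S1 and from 49.1 to 89.6 CPM at S3 (-0.66 ± 0.304, edgeR adjusted p = 0.0806), and it was called lower in 8 of 14 alternatives (adjusted p = 0.00655 to 0.204). In TPM its stages did not overlap either, with 296 to 725 TPM at S1 and 89.7 to 157 TPM at S3. With the embryo as a block, the paired fit gave B2m a log2 fold change of -0.57 and an adjusted p of 0.0114.

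Tapbp went the other way, from 28.9 to 45.01 CPM at S1 to 87.6 to 118 CPM at S3, with no overlap, as in 27.6% of all genes (log2 fold change 1.50 ± 0.184, edgeR adjusted p = 4.83e-05). It was called higher in 14 of 14 alternatives (log2 fold change 1.33 to 1.55), none of which uses TPM. In TPM the gene was at 45.04 ± 12.6 at S1 and 46.8 ± 7.57 at S3, with ranges that overlapped, so the rise depends on the unit. Psmb8 and Psmb9, which encode the inducible subunits that replace Psmb5 and Psmb6, fell by 2.47 ± 0.632 and 2.40 ± 0.654 on the log2 scale (edgeR adjusted p = 0.00576 and 0.00811). At S1 Psmb8 was 3.75, 13.7, 10.7 and 1.335 CPM in WT embryos 0, 1, 5 and 8, and the 2 low libraries were those with few neutrophil transcripts. The sort is described as on Ter119 and CD71. The study's foetal liver antibody panel also holds CD11b and Gr1, which mark neutrophils, and whether they were used in this sort is not stated. At S3 Psmb8 was between 0.758 and 1.72 CPM. This fall from S1 to S3 moved with the loss of the 11 neutrophil markers, which summed to 1.11 to 4.775 CPM in WT at S3, and the part of admixed cells in it was not tested. Other lists changed between the stages in WT too. By edgeR, 5 of 5 lymphoid and dendritic, 5 of 5 early progenitor and 3 of 3 class II genes tested were called lower. Called higher were 10 of 14 macrophage, 6 of 14 hepatoblast and 12 of 12 erythroid markers. Of all genes tested, 35% were called lower and 30.6% higher. In bulk libraries, fewer cells of a type and less RNA per cell cannot be told apart.

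**Figure D2:**
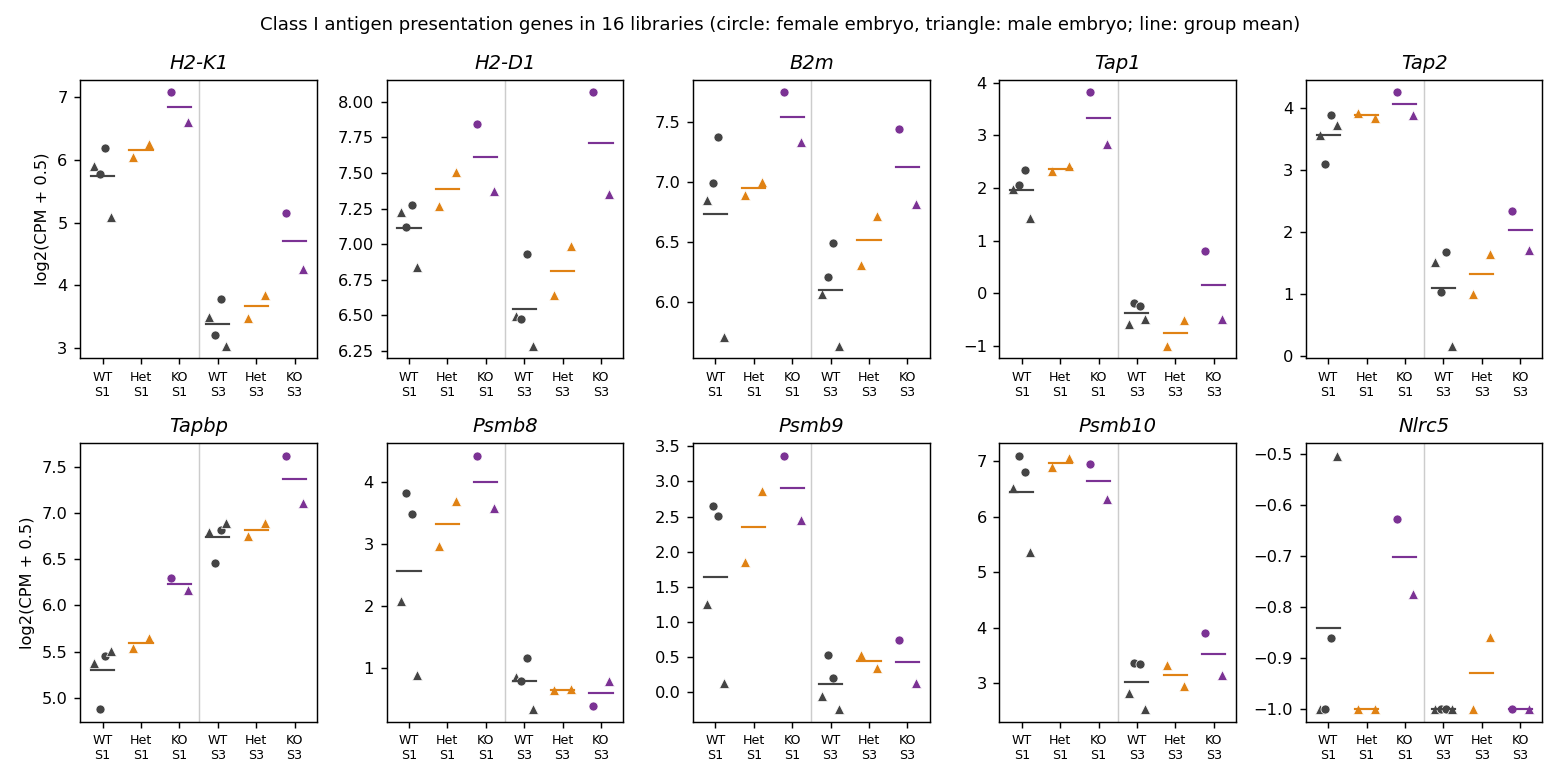
Each of the 10 members in the 16 libraries as log2(CPM + 0.5), by genotype and stage (circles, female embryos; triangles, male embryos; lines, group means of the log2 values; each panel has its own axis). H2-K1, H2-D1, B2m, Tap2 and Tapbp are above every WT library in both KO libraries at S3, and Psmb8 is not.

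At S3 the heavy chains, the light chain and the loading chaperone had higher levels in both KO libraries than in any WT library, but no member passed the adjusted threshold. Of 8 members tested, 0 were called, where 0.457% of 11804 genes were called higher and 0.102% lower. At an unadjusted p under 0.05, 4 of 8 members were counted, against 8.52% of all genes tested. With DESeq2, 3 were called (H2-K1, H2-D1 and B2m), where 146 of 11804 genes were called higher and 114 lower. With the sex of the embryo in the fit, edgeR and DESeq2 both called these 3 and Tapbp. Of all genes, these 2 fits called 285 higher and 262 lower (edgeR) and 314 higher and 400 lower (DESeq2). In 5 members, H2-K1, H2-D1, B2m, Tap2 and Tapbp, both KO libraries lay above all 4 WT libraries, which 6.57% of all genes tested did. The log2 fold changes of the 8 ran from -0.25 to 1.46 with a median of 0.88, and 7 of 8 were above 0, against 51% of all genes.

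H2-K1 was 10.8, 8.74, 13.3 and 7.72 CPM in WT embryos 0, 1, 5 and 8 at S3, and 35.3 and 18.7 CPM in KO embryos 2 and 9. Both KO values were above all WT values, by 2.75-fold on average (log2 fold change 1.46 ± 0.277, edgeR adjusted p = 0.0748, range over the alternatives 5.7e-08 to 0.474). H2-D1, the more abundant heavy chain, was 89.8, 88.2, 121 and 77.5 CPM in WT and 268 and 163 CPM in KO. The groups did not overlap (1.25 ± 0.219, edgeR adjusted p = 0.0582, range 9.73e-15 to 0.332). B2m, the light chain that every class I molecule needs to reach the surface, was 66.55, 73.4, 89.6 and 49.1 CPM in WT and 173 and 112 CPM in KO. It too did not overlap (1.095 ± 0.231, edgeR adjusted p = 0.112, range 4.37e-13 to 0.612).

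Tapbp was 110.2, 87.6, 112.5 and 118 CPM in WT and 196 and 138 CPM in KO at S3, with no overlap (0.69 ± 0.188, edgeR adjusted p = 0.23, range 0.000547 to 0.939). Tap2 was 2.37, 1.54, 2.68 and 0.62 CPM in WT and 4.56 and 2.78 CPM in KO. The lower KO value was just above the highest WT value (1.06 ± 0.477, edgeR adjusted p = 0.602). Tap1 did not pass the filter at S3, with 4, 8, 9 and 3 counts in WT embryos 0, 1, 5 and 8 and 20 and 4 counts in KO embryos 2 and 9. Psmb10 was 6.59, 9.77, 9.73 and 5.31 CPM in WT and 14.55 and 8.39 CPM in KO, and the groups overlapped (0.60 ± 0.299, edgeR adjusted p = 0.657). Psmb9 (0.58 ± 0.51) and Psmb8 (-0.25 ± 0.426) rested on 5 to 45 counts per library and overlapped too.

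KO embryo 2 had the higher value of the KO pair in 8 of 9 members with counts at S3, and without it the median log2 fold change of the members was 0.55. Without KO embryo 9 it was 1.18, and H2-K1 and H2-D1 were then called. With 1 KO library left, these fits take the spread from the WT libraries alone and assume that KO varies like WT. Without WT embryos 0 and 8 the median was 0.87 with 0 called. Within females, KO embryo 2 lay above both WT embryos in 7 of the 8 members tested, where 26.2% of all genes did, with H2-K1 at 35.3 against a WT mean of 11.02 CPM. Within males, KO embryo 9 lay above both WT embryos in 7 of 8, where 33.3% of all genes did, with H2-K1 at 18.7 against 9.27 CPM. These within-sex values have 1 KO library each and no test. The 12 erythroid markers went the other way at S3. All 12 had log2 fold changes below 0 (median -0.24, 0 called by edgeR), and they summed to 155600 and 155900 CPM in KO against 173900 to 204300 CPM in WT. Their part in the class I differences was not tested.

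**Figure D3:**
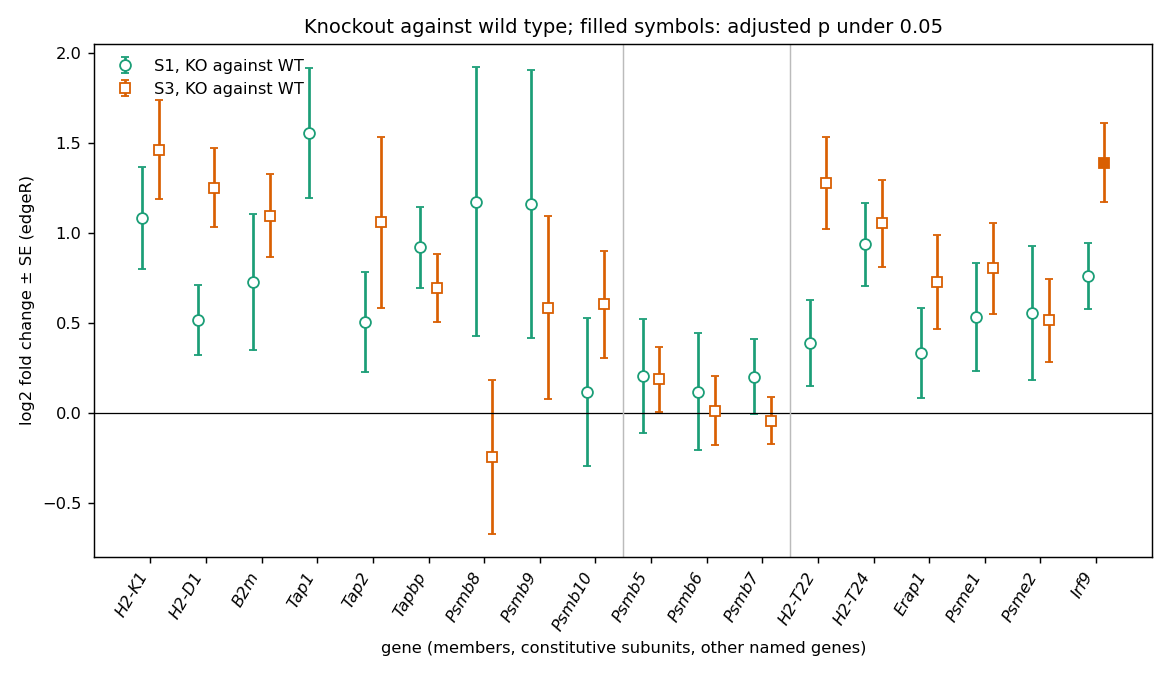
Log2 fold change of KO against WT with its standard error (edgeR) for the members tested, the 3 constitutive subunits and other named genes, at S1 (circles) and S3 (squares). Irf9 at S3 is the filled symbol (adjusted p under 0.05), and the constitutive subunits lie near 0.

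At S1 all 9 members tested had higher fitted levels in KO than in WT (48.9% of all genes did), again with 0 called (0% of 14039 genes were called higher and 0.00712% lower). At an unadjusted p under 0.05, 4 of 9 were counted, against 2.53% of all genes. DESeq2 called Tap1, where 37 of 14039 genes were called higher and 8 lower. DESeq2 with sex called H2-K1, Psmb8, Tap1 and Tapbp, where 133 genes were called higher and 52 lower. The median log2 fold change was 0.92, and 0.45 without WT embryos 0 and 8, when 8 of 9 were above 0. KO embryo 2 had the higher value of the KO pair in 10 of 10 members, and without it the median was 0.59, with Tap1 at 0.96 and H2-D1 at 0.26 on the log2 scale. Tap1 was 3.465, 3.63, 4.58 and 2.198 CPM in WT embryos 0, 1, 5 and 8 and 13.6 and 6.65 CPM in KO embryos 2 and 9. Both KO values were above all WT values (1.55 ± 0.361, edgeR adjusted p = 1.0, and 1.31 without WT embryos 0 and 8). H2-K1 was 59.5, 54.3, 72.6 and 33.7 CPM in WT and 134 and 96.5 CPM in KO (1.08 ± 0.282, edgeR adjusted p = 1.0, and 0.88 without them). Tapbp was 40.9, 28.9, 43.4 and 45.01 CPM in WT and 77.9 and 71.3 CPM in KO (0.92 ± 0.224, and 1.06 without them). H2-D1 was 149, 138, 154.5 and 114 CPM in WT and 229.6 and 165 CPM in KO (0.52 ± 0.192, and 0.45 without them). In these 4 genes the groups did not overlap, which 6.17% of all genes tested did in this direction.

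The other 5 members tested overlapped between KO and WT at S1. Psmb8 was 21.1 and 11.53 CPM in KO, against 3.75 and 1.335 CPM in WT embryos 0 and 8 and 13.7 and 10.7 CPM in WT embryos 1 and 5. Psmb9 split the WT embryos the same way, at 1.87 and 0.596 CPM against 5.775 and 5.19 CPM, with 9.815 and 4.96 CPM in KO. Their log2 fold changes were 1.17 ± 0.747 and 1.16 ± 0.743, and 0.43 and 0.44 without WT embryos 0 and 8. B2m was 51.7 to 165 CPM in WT and 214.5 and 161 CPM in KO (0.73 ± 0.378, and 0.38 without WT embryos 0 and 8). Tap2 was 8.02 to 14.3 CPM in WT and 18.55 and 14.3 CPM in KO (0.50 ± 0.279, and 0.57 without them). Psmb10 was 40.7 to 136 CPM in WT and 123 and 79.1 CPM in KO (0.11 ± 0.413), and its log2 fold change was -0.27 without WT embryos 0 and 8. Other markers moved with these values at S1. The 11 neutrophil markers summed to 1622 and 1701 CPM in KO against 116 to 1379 CPM in WT, and 10 of 10 tested had log2 fold changes above 0 (median 0.63, 0 called by edgeR). The 15 macrophage markers summed to 71.5 and 72.8 CPM in KO against 30.5 to 58.2 CPM in WT. Lyz2 alone gave 53.6 and 46.65 CPM of the KO sums, and 9.55 to 40.2 CPM in WT. Lyz2, Csf1r and Fcgr1 were above all WT libraries, as 6.17% of all genes were, and Marco was below them. Of the 14 macrophage markers tested, 9 had log2 fold changes below 0. Of the 12 erythroid markers, 11 had log2 fold changes below 0 (median -1.34), and they summed to 1999 and 3639 CPM in KO against 2802 to 9877 CPM in WT. Of 5 early progenitor markers, 4 had log2 fold changes above 0 (median 0.74), with Gata2, Cd34 and Spi1 above all WT libraries, and 13 of 14 hepatoblast markers were below 0 (median -0.90). The part of these transcripts in the class I differences was not tested.

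**Figure D4:**
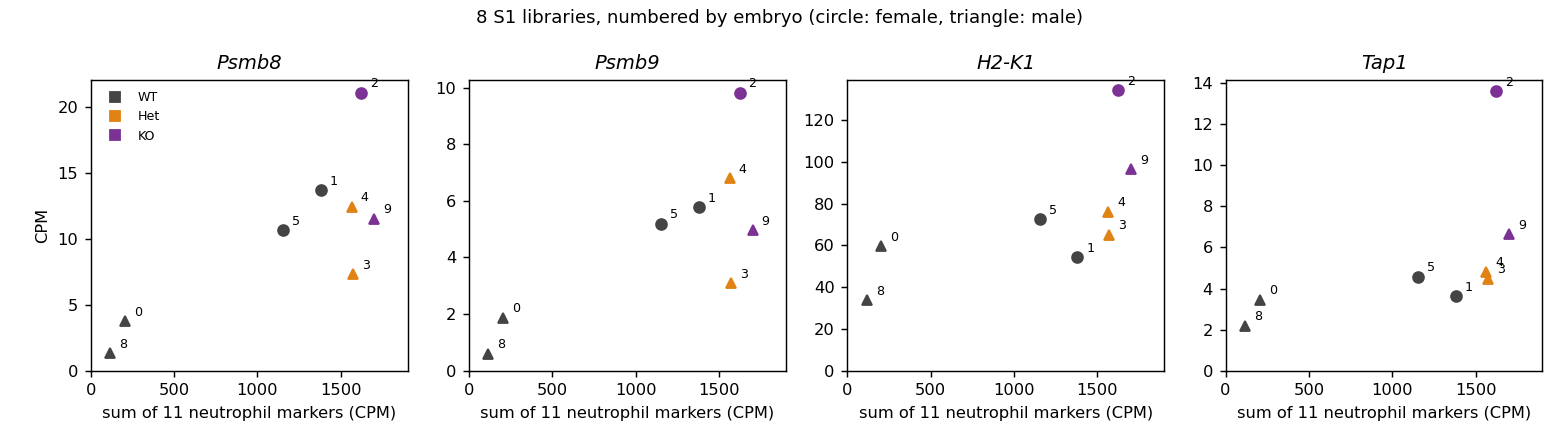
CPM of Psmb8, Psmb9, H2-K1 and Tap1 in the 8 S1 libraries against the summed CPM of 11 neutrophil markers, with embryo numbers beside the points. WT embryos 0 and 8 sit at 204 and 116 CPM of neutrophil markers and hold the lowest Psmb8 and Psmb9 values, while H2-K1 and Tap1 are highest in KO embryos 2 and 9.

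The KO effect was not called different between S3 and S1 in any of the 9 members tested by the interaction term (0 of 9, where 0.00742% of 13485 genes were called higher, Nprl3 itself). At an unadjusted p under 0.05, 1 member was counted (3.11% of all genes), H2-D1, whose effect was larger at S3 by 0.73 ± 0.319 on the log2 scale (edgeR adjusted p = 1.0). DESeq2 also called 0. For Psmb8 the difference was -1.44 ± 1.01.

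The Het libraries were compared with the same WT libraries as the KO libraries. In Het, 0 of 8 members were called at S3 and 0 of 9 at S1 (0% of 11746 and of 13818 genes), by edgeR and by DESeq2, and at an unadjusted p under 0.05 the counts were 0 and 0 (3.18% and 4.26% of all genes). At S3 H2-K1 was 10.6 and 13.97 CPM in Het embryos 3 and 4, where WT reached 13.3 and KO began at 18.7 CPM. H2-D1 was 99.2 and 126 CPM, where WT reached 121 and KO began at 163 CPM. B2m was 78.5 and 104.8 CPM, with a log2 fold change of 0.46 ± 0.209 (edgeR adjusted p = 0.901), against 1.095 in KO. With sex in the fit B2m was called in Het at S3 by edgeR, and B2m and H2-D1 by DESeq2, but both Het embryos are male. Calls were common over all genes in these fits. Of 11746 genes, edgeR called 1038 higher and 1086 lower, and DESeq2 1250 higher and 900 lower. The median over members was 0.27 at S3 and 0.37 at S1 (0.17 without WT embryos 0 and 8), against 0.88 and 0.92 for KO. The Het medians moved with single embryos, from 0.11 without Het embryo 4 to 0.47 without WT embryo 5 at S3 (0.46 without Het embryo 3), and from 0.17 without WT embryo 8 (0.20 without Het embryo 4) to 0.50 without WT embryo 5 at S1.

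The inducible proteasome subunits were set beside the constitutive subunits whose places they take, as a share of the pair in counts per kilobase, so that the scaling between libraries cancels. Psmb10 made up 66.7 ± 7.83% of its pair with Psmb7 in WT at S1 and 8.41 ± 1.77% at S3 (mean ± SD, n = 4). The other pairs were almost wholly constitutive. Psmb8 was 0.617 ± 0.434% of the pair with Psmb5 at S1 and 0.083 ± 0.0231% at S3, and Psmb9 was 0.383 ± 0.232% of the pair with Psmb6 at S1 and 0.0605 ± 0.0163% at S3. In KO at S3 the Psmb10 share was 10.31 and 14.7%, where WT ran from 6.31 to 10.3% (two-sided exact permutation p = 0.133, adjusted over 6 tests 0.399). At S1 it was 70.4 and 62.99% in KO and 56.8 to 75.4% in WT (exact permutation p = 1.0). The Psmb9 share at S1 was 0.72 and 0.98% in KO, above the 0.144 to 0.597% of WT (exact permutation p = 0.133, adjusted 0.399). With 4 against 2 libraries the smallest p that this two-sided test can give is 0.133, so no pair could pass the threshold. Without WT embryos 0 and 8 the KO minus WT differences at S1 were 0.306 (Psmb8), 0.268 (Psmb9) and -5.77 (Psmb10) percentage points, against 0.654, 0.467 and -0.0232 with them. Psmb5, Psmb6 and Psmb7 themselves differed little at S3, with log2 fold changes of 0.19 ± 0.181, 0.01 ± 0.193 and -0.04 ± 0.129.

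**Figure D5:**
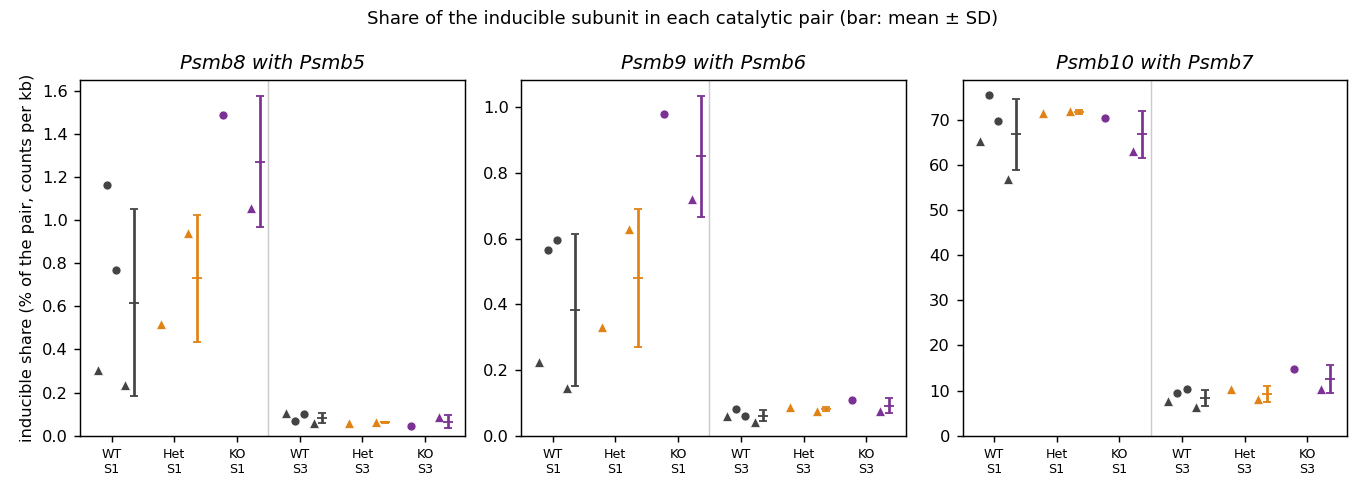
Share of the inducible subunit in each catalytic pair, in percent of counts per kilobase, in every library (circles, female; triangles, male) with group means ± SD; each panel has its own axis from 0. The Psmb10 share averages 66.7% at S1 and 8.41% at S3 in WT, and the highest Psmb8 and Psmb9 shares are 1.485% and 0.98%, both in KO embryo 2 at S1.

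Among the other genes of the pathway reported here, 1 upstream regulator was called by edgeR in KO at S3, and 0 of the other heavy chains, loading partners and class I-like proteins. Other settings called some of the latter. Of 14 regulators of class I genes tested at S3, Irf9 was called higher, where 0.457% of all genes were. At an unadjusted p under 0.05, 3 of the 14 were counted, against 8.52% of all genes. Both KO libraries lay above all WT libraries in 4 of the 14, against 6.57% of all genes, and below in 2. The median log2 fold change of the 14 was 0.092. Irf9, a DNA-binding factor of the interferon response, ran from 81.9 to 157 CPM in WT and was 269.7 and 295 CPM in KO (1.39 ± 0.219, edgeR adjusted p = 0.0392). At S1 both KO libraries were above all WT libraries (0.76 ± 0.185, and 0.62 without WT embryos 0 and 8), and Irf9 was called there in 1 of 15 alternatives, DESeq2 with sex (adjusted p = 0.0214). Irf9 was called in 8 of 15 alternatives at S3. The call was lost without WT embryo 0 (adjusted p = 0.13), 1 (0.0901) or 8 (0.102), without both embryos 0 and 8 (0.133), without KO embryo 2 (0.158) or 9 (0.0994), and in the upper-quartile scaling (0.0549). The fits with 1 KO library take the spread from WT alone. The log2 fold change ran from 1.25 to 1.56 with 1 embryo left out.

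Of the 15 other class I heavy chains listed, 4 passed the filter at S3 and 0 were called by edgeR. H2-T22 ran from 4.14 to 7.01 CPM in WT and was 10.27 and 13.1 CPM in KO (1.28 ± 0.254, edgeR adjusted p = 0.0898). H2-T24 ran from 34.5 to 65.9 CPM in WT and was 98.1 and 103 CPM in KO (1.05 ± 0.242, edgeR adjusted p = 0.15). Each was called in 5 of 15 alternatives, by DESeq2 (adjusted p = 0.00168 and 0.00643), with sex in edgeR (0.00956 and 0.00153) and in DESeq2, with no filter and with all 16 libraries in the fit. H2-Q10, a secreted class I chain made by the liver, was lower in both KO libraries (-1.48 ± 0.58, edgeR adjusted p = 0.502, called in 3 of 15 alternatives), and all 14 hepatoblast markers tested had log2 fold changes below 0 as well. In WT, H2-T24 was higher at S3 than at S1 (3.70 ± 0.244, edgeR adjusted p = 9.96e-07), against the fall of H2-K1. These genes have close relatives, and reads shared with them are not counted.

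Of the 10 loading and trimming partners, 0 were called by edgeR in KO at either stage. At S3 the proteasome activator subunit Psme1 ran from 54.7 to 99.3 CPM in WT and was 97.2 and 161 CPM in KO (0.80 ± 0.251, edgeR adjusted p = 0.317). The peptide-trimming enzyme Erap1 ran from 3.515 to 7.13 CPM in WT and was 9.31 and 9.41 CPM in KO (0.73 ± 0.261, edgeR adjusted p = 0.422). Psme2 had a log2 fold change of 0.51 ± 0.23. Psme1 was called in 3 of 15 alternatives (with sex in edgeR, adjusted p = 0.00155, and in DESeq2, and with no filter) and Psme2 in 2 (with sex in edgeR, 0.00611, and in DESeq2). Their log2 fold changes were 0.40 and 0.16 without KO embryo 2, and 1.11 and 0.80 without KO embryo 9. Of 6 class I-like proteins, 2 were tested at S3 and both had log2 fold changes below 0, Hfe (-1.58 ± 0.509) and Fcgrt (-0.80 ± 0.486). MHC class II genes summed to at most 1.85 CPM in any S3 library, 0 of 9 passed the filter there, and at S1 their sum ran from 3.74 to 16.8 CPM in WT and from 12.2 to 22.2 CPM in KO.

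The members on chromosome 17 have many neighbours that are not part of the pathway. Of 132 genes outside the members that start between H2-K1 and H2-D1, 39 passed the filter at S3 and 0 were called by edgeR. Their median log2 difference was 0.086, 26 were above 0 (51% of all genes were), and 5 had an unadjusted p under 0.05 (8.52% of all genes did). At S1, 52 were tested, 0 were called and the median was 0.06.

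Over all 16 libraries, taken as differences from the WT mean of each stage in log2(CPM + 0.5), the 5 genes closest to the median of the members among 13350 genes were Xaf1 (Pearson r = 0.907), Rtp4 (0.905), Trim30a (0.899), Bnip3 (0.898) and Ifitm3 (0.898). These values are a description over libraries that share their embryos. Rtp4 averaged 2.845 CPM in WT, 2.72 in Het and 27.8 CPM in KO at S1, and 1.88, 1.78 and 19.3 CPM at S3. Ifitm3 averaged 13.46, 15.6 and 51.5 CPM at S1 and 5.07, 5.71 and 29.55 CPM at S3. Bnip3, a mitophagy receptor, averaged 46.15, 44.8 and 106 CPM at S3. In each of these the Het mean lay near the WT mean.

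Of the markers of other cells, all 14 macrophage markers and all 14 hepatoblast markers tested had log2 fold changes below 0 in KO at S3. The 15 macrophage markers summed to 47.9 to 106.6 CPM in WT and 40.99 and 23.8 CPM in KO, and Marco and Lyz2 were called lower (edgeR adjusted p = 0.0242 and 0.0458). The 14 hepatoblast markers summed to 241.5 to 1010 CPM in WT and to 108 and 267 CPM in KO. The 10 megakaryocyte markers summed to 58.9 to 103.6 CPM in WT and to 61.6 and 121 CPM in KO embryos 2 and 9, and 11 neutrophil markers to 1.11 to 4.775 and 1.54 and 14.1 CPM. Of the 11 neutrophil markers, 2 passed the filter in this comparison (Ngp and Mpo). Early progenitor markers summed to 5.79 to 8.83 CPM in WT and 6.47 to 11.8 CPM in KO. The part of any of these cells in the class I values was not tested.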

How the data were processed

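RNA of sorted cells was amplified, and reads were aligned to mm39 (STAR 2.7.9). The authors deposited raw counts per gene made with featureCounts 1.6.4, without strand and without reads that fell in several genes or places. The 16 libraries were grouped by the genotype and stage in their labels. Columns of 4 further libraries are not among the samples used here and were left out. Of the table's 55416 genes, 54749 were matched to a symbol (GENCODE M39). Genes averaging more than 10 normalized counts in the compared libraries were tested with edgeR 4.0.16 (TMM, glmQLFit and glmQLFTest) in R 4.3.3, with Benjamini-Hochberg adjustment over all genes and a threshold of 0.05, after a check on simulated data. DESeq2 1.42.0, sex as a covariate, other scalings, no filter, all 16 libraries and each embryo left out were alternatives. Libraries of both stages with the same number are from the same animal. Their deviations from the group means correlated at r = 0.048 to 0.536 over 13402 genes, and the embryo as a block was an alternative in the fits over both stages. Depth was 20666044 counts or more per library, and floors of 3 counts cover counting error only. The text names all 10 members, the constitutive subunits, and of each pathway list the genes called in KO or else the 3 with the smallest p at S3. One regulator of the pathway is not reported here. The members and lists were chosen with earlier results of these data known. Promoter sequences are RefSeq's on GRCm38.p6.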

Additional observations from a re-analysis of the deposited data

How the results depend on the processing

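With RLE, upper-quartile or globin-free scaling, all counts of members called stayed within 1.5 times the values given above. At S3 the members called higher in KO, 0 with the settings used in the text, numbered 4 with no filter on low counts, 3 with DESeq2, 4 with sex in edgeR, 4 with sex in DESeq2, 2 with all 16 libraries in 1 fit, and 0 to 2 with 1 embryo left out, 2 being without KO embryo 9, where 1 KO library is left and the spread comes from WT alone. At S1 they numbered 1 with DESeq2 and 4 with DESeq2 and sex, where 37 and 133 of 14039 genes were called higher. In Het they numbered 1 (edgeR) and 2 (DESeq2) at S3 with sex in the fit, and 2 at S1 with DESeq2 and sex (Psmb8 and Psmb9). That S1 fit called 341 of 13818 genes higher and 455 lower. The block for the embryo in the paired fit called 8 members lower from S1 to S3 in place of 7, by adding B2m, and left the interaction at 0. It changed no other member's call. Upper-quartile scaling moved the median log2 fold change of all genes from S1 to S3 from -0.084 to -0.24, and B2m was then called lower (-0.83, edgeR adjusted p = 0.0346), while Tapbp was still called higher. Over all genes in KO at S3, 54 higher and 12 lower genes became 5 and 0 without WT embryos 0 and 8 (chosen after seeing the data). They became 219 and 137 with no filter, 146 and 114 with DESeq2 and 285 and 262 with sex in edgeR. With DESeq2 and sex they became 314 and 400, and with all 16 libraries in the fit 94 and 18. In Het at S3, 0 genes became 1038 higher and 1086 lower with sex in edgeR, and 1250 and 900 with sex in DESeq2. The causes of these shifts were not tested.

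Raw counts in place of counts per kilobase moved the KO minus WT differences in inducible share to -0.0687 (Psmb8, S3), 2.345 (Psmb8, S1), 0.0612 (Psmb9, S3), 0.903 (Psmb9, S1) and 2.29 (Psmb10, S3) percentage points. Leaving out 1 embryo gave -0.0402 to 0.00354 (Psmb8, S3), 0.015 to 0.0478 (Psmb9, S3), 1.9 to 6.33 (Psmb10, S3) and -3.73 to 3.68 (Psmb10, S1). Directions that turned belonged to log2 fold changes that were not called with the settings used in the text. In KO at S3, Psmb6 gave -0.000432 with RLE, -0.025 with upper-quartile scaling and -0.18 without WT embryos 0 and 8. With 1 embryo left out the ranges were -0.23 to 0.22 (Psmb6), -0.61 to 0.028 (Psmb8), -0.017 to 0.36 (Psmb5) and -0.14 to 0.045 (Psmb7) at S3, and -0.24 to 0.39 (Psmb10) and -0.17 to 0.34 (Psmb6) at S1. Without WT embryos 0 and 8, KO at S1 gave -0.27 (Psmb10), 0.60 (H2-Q10), -0.10 (Hfe), -0.023 (Psmb5) and -0.15 (Psmb6), and Het gave -0.12 (Psmb10, S3), -0.24 (B2m, S1), -0.29 (Psmb8, S1) and -0.14 (Psmb9, S1). Psmb8 in Het at S3 was 0.037 with sex in edgeR and 0.078 in DESeq2. With 1 embryo left out, Het gave -0.029 to 0.33 (Psmb10, S3), -0.25 to 0.59 (Tap2, S3), -0.33 to 0.0012 (Psmb8, S3), -0.11 to 1.03 (Psmb9, S1) and -0.15 to 0.34 (B2m, S1), and the interaction of Tap1 ran from -1.25 to 0.18. Psmb8, Psmb9, Tap1 and Nlrc5 at S3 rest on counts too low for small differences to be detectable.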
